A study of Mus musculus with 6 samples.

Results

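Matrix metalloproteinases (MMP) and the related ADAMTS proteases were followed in the aorta of eNOS-deficient mice, which lack the nitric oxide synthase of endothelium, and of age-matched wild-type controls. The members were all genes named Mmp or Adamts with a number whose probe set listed that gene alone, which gave 40 of 22180 such genes, 22 MMP and 18 ADAMTS. Where a gene had several probe sets, the brightest was taken. Mmp15 and Adamts2 were not analysed here. The sources used here do not give the allele, strain, sex or age in weeks, and they name no treatment. Since the labels do not say whether each sample was 1 animal, the spread behind each p-value is that between samples and may be technical. There were 3 arrays per group, called here by the numbers in their titles: eNOS-deficient 11, 15 and 19, and wild type 2, 3 and 5.

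MMPs are zinc-dependent endopeptidases that are made as inactive proenzymes and cut collagens, elastin, fibronectin and proteoglycans. Membrane-type MMPs stay on the cell surface, where they also activate other MMPs, and TIMP proteins block the active enzymes. ADAMTS proteases are secreted, bind matrix through thrombospondin repeats, and cut proteoglycans such as aggrecan and versican, the propeptides of collagen, or von Willebrand factor. In arteries both families take part in turnover of elastic fibres and collagen.

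The signal is the authors' log2 RMA value, in which 1 unit is a doubling. Nos3, the gene that encodes eNOS, measured 7.13, 7.39 and 7.27 on the eNOS-deficient arrays and 7.99, 7.88 and 7.36 on wild type 2, 3 and 5, a difference of -0.48 (limma adjusted p = 0.399). Wild type 5 lay below eNOS-deficient 15, so the groups overlapped, and whether the probes lie in the deleted part of the gene is not known. Arrays are therefore named throughout by their labels. The smooth muscle markers of aorta were present: all 7 were above the dim level of 4.38 log2, the 25th percentile of all probe sets, and Acta2 stood between 12.30 and 12.80 on the 6 arrays. The 7 adipocyte and 8 skeletal muscle markers were above that level too, and the adipocyte marker Ucp1 stood between 12.91 and 13.12. Signals are thus those of the whole sample, not of vessel wall alone. Wild type 5 stood apart. The mean of 15 squamous epithelium markers was 8.98 on it. The same mean was 6.22 for wild type 2, 5.53 for wild type 3, and between 5.06 and 5.21 in the eNOS-deficient group. Krt4, a keratin of squamous epithelium, stood at 13.33 on wild type 5. The mean of 8 endothelial markers was 8.30 on that array against 9.03 and 9.06 on the other wild-type arrays. In the eNOS-deficient group, array 11 stood apart too. Its mean of 6 lymphocyte markers was 5.94, against 7.74 to 8.79 on all other arrays. Its mean of 8 skeletal muscle markers, 11.53, was the highest, followed by 10.88 on wild type 5. The 3 Y-linked markers averaged 7.76, 4.71 and 8.002 on eNOS-deficient 11, 15 and 19, and lay between 3.47 and 3.63 in wild type. The wild-type means were thus under the dim level of 4.38 log2 and the eNOS-deficient means above it. The eNOS-deficient arrays were not alike, since array 15 lay far below 11 and 19. On array 15 Kdm5d was under the dim level at 4.24, and Eif2s3y and Uty were above it at 4.70 and 5.18. Sex is not given in the labels, so its part in any difference cannot be told apart from that of genotype. Precision is limited by having 6 arrays. Results are given with and without wild type 5 where they depend on it.

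Of the 40 genes, 34 lay above the dim level on average and were tested together with all other genes. None of the 34 passed an adjusted p of 0.05 in limma, where 0.0278% of 18007 genes did (5 genes), and the lowest adjusted p of a member was 0.208. At an unadjusted p under 0.05, 6 of 34 members were higher in eNOS-deficient aorta (17.6%, against 7.86% of all genes) and 0 lower (against 3.72%). Groups of arrays that did not overlap were found for 4 members with higher signal (against 13.1% of all genes) and for 2 with lower signal (against 6.48%), shares close to the background. The Y-linked markers also separated the groups, and with their mean as a covariate 0 members had an unadjusted p under 0.05, where 1.53% of all genes were higher and 1.26% lower. The differences were then 0.87 for Mmp3, 0.70 for Mmp9, 0.59 for Mmp14, 0.81 for Mmp2, 0.31 for Adamts5 and 0.67 for Adamts16, with wider standard errors (0.48 against 0.27 for Mmp3). The median difference over the 34 genes was 0.067 log2, beside 0.036 over all genes.

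The families differed in their counts. Of 17 tested MMP genes, 14 had a positive and 3 a negative difference, with a median of 0.16. Of 17 tested ADAMTS genes, 7 were positive and 10 negative, with a median of -0.023. The sign of that median was not stable. It was 0.042 with arrays centred on their medians, 0.054 after repeated quantile normalization, 0.24 with the macrophage and 0.13 with the Y-linked covariate, 0.059 without wild type 2 and 0.028 without eNOS-deficient 11. The MMP median was 0.15 with the macrophage covariate and 0.022 with the epithelium covariate. Among all genes 56.6% of differences were positive. The difference between the families itself was not tested.

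**Figure D1:**
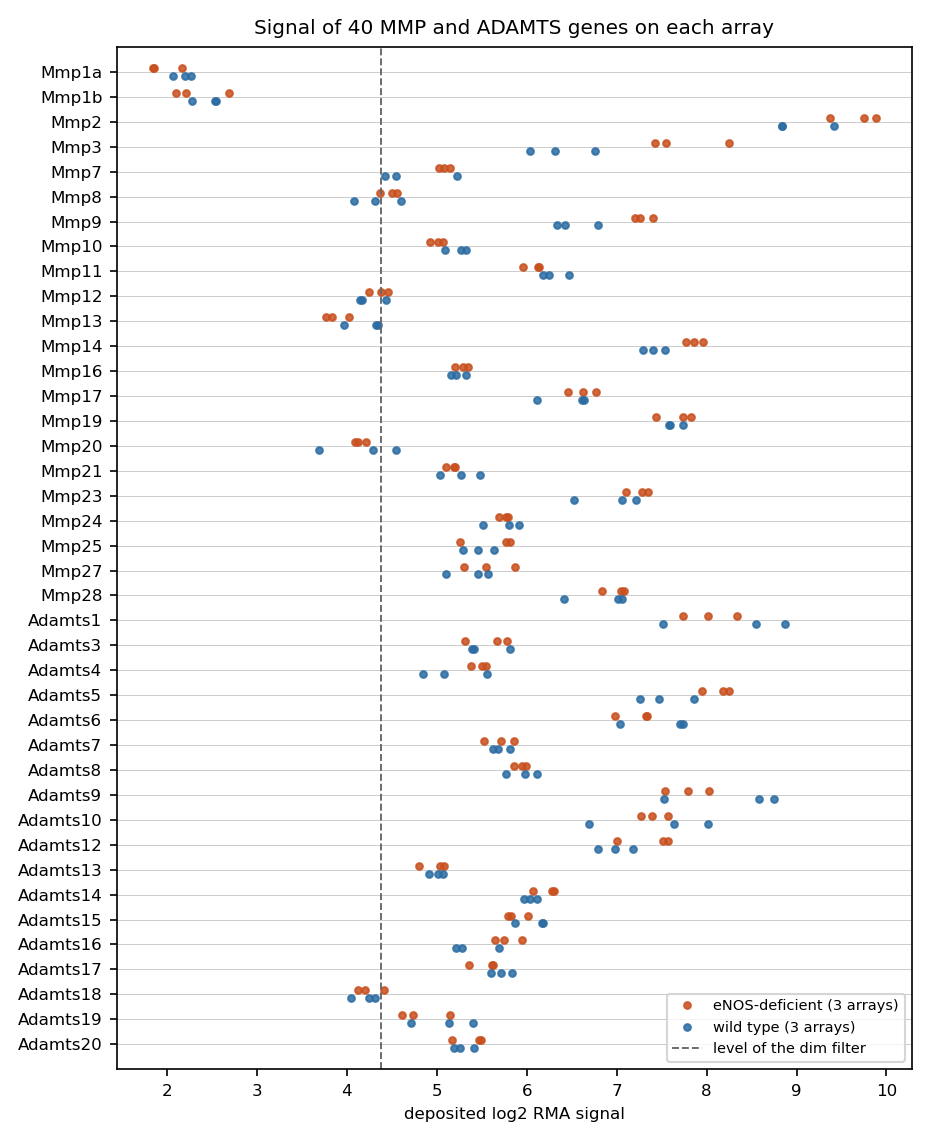
Deposited log2 signal (horizontal axis) of each of 40 genes on 3 eNOS-deficient and 3 wild-type arrays; each point is 1 array and the dashed line is the dim level of 4.38 log2. Mmp3, Mmp9, Mmp14 and Adamts5 have all eNOS-deficient points to the right of the wild-type points, and 6 genes have a mean left of the line.

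Mmp3, stromelysin, cuts proteoglycans and fibronectin and activates other MMPs. Its signal was 7.55, 7.42 and 8.25 log2 on eNOS-deficient 11, 15 and 19 and 6.04, 6.32 and 6.76 on wild type 2, 3 and 5. Every eNOS-deficient array thus lay above every wild-type array, with eNOS-deficient 19 highest and wild type 2 lowest. The group means were 7.74 ± 0.45 (SD, n = 3) and 6.37 ± 0.36, a 2.59-fold difference that did not pass over all genes (limma adjusted p = 0.208, unadjusted p = 0.0012). In tissue RNA, fewer cells of a type and less RNA per cell cannot be told apart. The 8 macrophage markers averaged 8.10, 8.11 and 8.42 on the eNOS-deficient arrays and 7.26, 7.32 and 7.67 on wild type 2, 3 and 5, and 7 of them were higher at an unadjusted p under 0.05. With their mean as a covariate the Mmp3 difference was -0.14 with a standard error of 0.33, against 1.37 with a standard error of 0.27 without it, and the adjusted p was 0.898. Their part in the result was not tested beyond this, since the macrophage mean itself did not overlap between the groups.

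Mmp3 lies on chromosome 9 in a run of 10 MMP genes with no other protein-coding gene between them, in the order Mmp13, Mmp12, Mmp1b, Mmp3, Mmp1a, Mmp10, Mmp8, Mmp27, Mmp20 and Mmp7 (RefSeq, GRCm38.p6). Its difference was the only one of the run whose 95% interval lay above 0. Mmp10, the other stromelysin, stood at 5.07, 5.01 and 4.92 on the eNOS-deficient arrays and 5.32, 5.27 and 5.09 on the wild-type arrays. All eNOS-deficient values were below the wild-type values, but by a small amount: the difference was -0.22 (standard error 0.12, limma adjusted p = 0.516). Of the run, Mmp13, Mmp12, Mmp1b, Mmp1a and Mmp20 were under the dim level and were not tested. The remaining Mmp8, Mmp27 and Mmp7 differed by 0.14, 0.19 and 0.35 with overlapping groups.

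The promoters of Mmp3 and Mmp10 are shown because these genes of the run, both stromelysins, carry the same motifs. Those of Mmp14 and Adamts1 are shown because they lie outside the run and hold GGGCGG, which Mmp3 and Mmp10 lack. Adamts1 also holds TATAAA, as Mmp3 and Mmp10 do. The windows are the 250 bases before the annotated start, from RefSeq on GRCm38.p6, written from 5′ to 3′ on the gene's strand. Capitals mark matches to TGANTCA, the AP-1 motif, to TATAAA, the TATA box, and to GGGCGG, the GC box, each searched on both strands.
Mmp3, chr9:7445572-7445821, plus strand: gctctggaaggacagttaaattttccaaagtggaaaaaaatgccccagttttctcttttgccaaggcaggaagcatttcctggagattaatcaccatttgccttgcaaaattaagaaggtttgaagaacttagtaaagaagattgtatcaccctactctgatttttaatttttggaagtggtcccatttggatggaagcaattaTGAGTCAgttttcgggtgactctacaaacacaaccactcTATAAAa
Mmp10, chr9:7502092-7502341, plus strand: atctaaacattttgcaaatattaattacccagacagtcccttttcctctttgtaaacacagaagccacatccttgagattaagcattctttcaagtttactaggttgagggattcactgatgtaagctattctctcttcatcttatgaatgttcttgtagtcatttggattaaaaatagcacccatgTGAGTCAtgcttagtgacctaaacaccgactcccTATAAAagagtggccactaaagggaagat
Mmp14, chr14:54431348-54431597, plus strand: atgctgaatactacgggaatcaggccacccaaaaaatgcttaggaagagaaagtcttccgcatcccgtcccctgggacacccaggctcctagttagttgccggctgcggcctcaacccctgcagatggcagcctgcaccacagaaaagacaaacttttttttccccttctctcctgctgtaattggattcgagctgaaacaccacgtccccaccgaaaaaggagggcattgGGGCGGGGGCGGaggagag
Adamts1, chr16:85803114-85803363, minus strand: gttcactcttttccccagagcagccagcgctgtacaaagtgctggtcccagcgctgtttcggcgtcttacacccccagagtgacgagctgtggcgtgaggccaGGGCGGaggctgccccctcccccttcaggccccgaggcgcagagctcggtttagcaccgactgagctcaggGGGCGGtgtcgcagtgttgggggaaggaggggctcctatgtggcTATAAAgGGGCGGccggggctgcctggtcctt
In Mmp3 the AP-1 match TGAGTCA covers bases -46 to -40 from the start and TATAAA bases -7 to -2. In Mmp10 the same letters lie at -63 to -57 and -29 to -24. Mmp14 has GGGCGG at -19 to -14 and directly after it at -13 to -8, with no overlap of the matches. Adamts1 has TATAAA at -32 to -27 and GGGCGG at -147, -76 and -25, counted to their first base.

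The promoter table held windows for 26 of the 40 genes. An AP-1 match was found for 8 of the 10 genes of the chromosome 9 run and for 0 of the 16 others, where 6.75% of 32851 windows of the same length hold it. TATAAA was found for 7 of 10 and 2 of 16 (12.4% of all windows), and GGGCGG for 0 of 10 and 11 of 16 (32.7%). These are matches of letters, and say nothing of binding in these aortas. Among the 5 tested genes of the run, Mmp3, Mmp10 and Mmp7, the last in 1 of 2 windows, hold the AP-1 match and differed by 1.37, -0.22 and 0.35 log2, while Mmp8 and Mmp27 have no match in their windows.

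The gelatinases Mmp2 and Mmp9 cut denatured collagen and basement membrane collagen. Mmp9 measured 7.20, 7.26 and 7.41 on eNOS-deficient 11, 15 and 19 and 6.43, 6.79 and 6.34 on wild type 2, 3 and 5. The groups did not overlap, and the 3 eNOS-deficient arrays lay close together. The difference was 0.77 log2, or 1.70-fold (95% interval 1.33 to 2.18), and did not pass (limma adjusted p = 0.208). Neutrophils store this enzyme, and of 8 neutrophil markers 4 were under the dim level. The list averaged 4.31 to 4.72 on the eNOS-deficient and 4.36 to 4.41 on the wild-type arrays. Macrophages also make it, and with macrophage markers as a covariate the difference was 0.86 (standard error 0.41, limma adjusted p = 0.447).

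Mmp2 measured 9.88, 9.75 and 9.37 on the eNOS-deficient arrays and 8.83, 8.84 and 9.41 on the wild-type arrays. Wild type 5 lay just above eNOS-deficient 19, so the groups overlapped. The difference was 0.64 (95% interval 0.15 to 1.13, limma adjusted p = 0.343), and 0.83 without wild type 5 (adjusted p = 0.145). Fibroblasts are a main source of Mmp2, and the mean of 7 adventitial fibroblast markers ran 9.76, 9.58 and 9.49 on eNOS-deficient 11, 15 and 19 and 8.66, 8.90 and 9.41 on wild type 2, 3 and 5. Wild type 5 was thus the highest wild-type array for both, and the part of fibroblast content was not tested.

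Mmp14, the membrane-type enzyme that activates Mmp2 together with Timp2, measured 7.77, 7.96 and 7.86 on the eNOS-deficient arrays against 7.54, 7.29 and 7.40. The groups did not overlap, and each group lay close together. The difference was 0.45 log2, or 1.37-fold (95% interval 1.12 to 1.68, limma adjusted p = 0.292), and stayed between 0.39 and 0.52 when single arrays were left out. The other membrane-type genes gave differences of 0.16 for Mmp17, 0.15 for Mmp25, 0.048 for Mmp16 and 0.0074 for Mmp24, each with overlapping groups. Without wild type 5, Mmp17 turned to -0.0096 and Mmp25 was 0.24. A further probe set that lists Mmp24 with another gene stood at 7.75 to 8.05 on the 6 arrays and differed by 0.082.

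**Figure D2:**
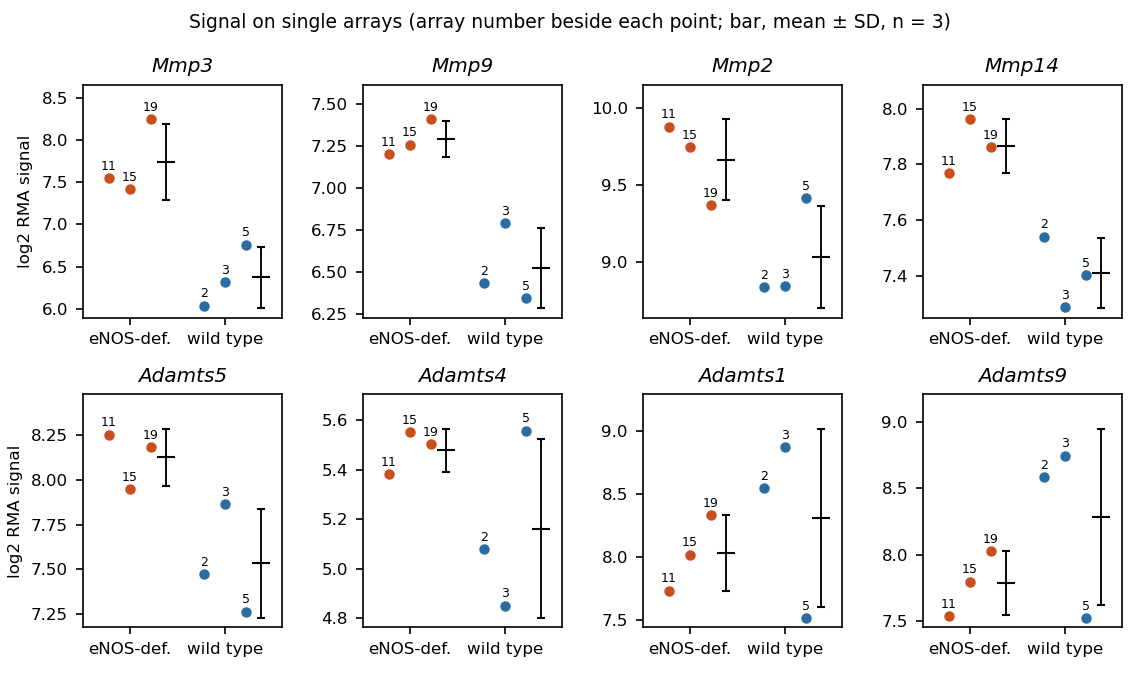
Log2 signal of 8 genes on each array, with the array number beside each point and the mean ± SD of 3 arrays as a bar; each panel has its own vertical scale, which does not start at 0. For Mmp3, Mmp9, Mmp14 and Adamts5 the groups are apart, and for Adamts1 and Adamts9 wild type 5 lies at 7.52, more than 1 log2 unit below the other wild-type arrays.

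Collagenases, which cut intact fibrillar collagen, gave little signal. Mmp8, the neutrophil collagenase, was just above the dim level with a mean of 4.40, and the nearest gene below the level was Mmp12 with 4.30. The collagenase Mmp13 had a mean of 4.05, and the rodent collagenases Mmp1a and Mmp1b had means of 2.07 and 2.40. The macrophage elastase Mmp12 stood at 4.37, 4.45 and 4.24 on the eNOS-deficient arrays and 4.15, 4.17 and 4.44 on the wild-type arrays, around the dim level in both groups. It was not tested, and its values overlapped between groups. The mean of the macrophage markers differed by 0.79 log2, and so dim a signal cannot show whether Mmp12 followed them. Mmp20, the tooth enamel protease, had a mean of 4.16 and Adamts18 one of 4.23, also under the level.

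Mmp11, which furin activates inside the cell, was the other gene with all eNOS-deficient arrays below wild type, at 6.14, 6.13 and 5.96 against 6.46, 6.25 and 6.18. The difference was -0.22 (limma adjusted p = 0.542), and its second, dimmer probe set gave 0.12, so its probe sets disagree in sign. Mmp7, matrilysin, an enzyme of epithelium, measured 5.09, 5.03 and 5.14 against 4.42, 4.55 and 5.22. Wild type 5, with the highest epithelial marker mean, was the highest of all 6 for Mmp7, while wild type 2, with the next highest marker mean, was the lowest. Without it the difference was 0.60 (adjusted p = 0.136), against 0.35 with it, while a second probe set of Mmp7 gave -0.010 over all arrays. Of the rest, Mmp23 differed by 0.31, Mmp28 by 0.16, Mmp19 by 0.028 and Mmp21 by -0.090, with overlapping groups. Without wild type 5 the sign turned for Mmp28 (-0.050) and Mmp19 (-0.0028), and Mmp23 dropped to 0.11.

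Adamts5, the main aggrecan-cutting enzyme of mouse cartilage, measured 8.25, 7.95 and 8.18 on eNOS-deficient 11, 15 and 19 and 7.47, 7.86 and 7.26 on wild type 2, 3 and 5. It was the only 1 of 17 tested ADAMTS genes with groups that did not overlap (5.88%), with eNOS-deficient 15 only slightly above wild type 3. Of all genes 13.1% were apart with higher signal and 6.48% with lower signal. The difference was 0.59 log2, or 1.51-fold (95% interval 1.13 to 2.02), and did not pass (limma adjusted p = 0.317). Without wild type 5 the Adamts5 difference was 0.46 (adjusted p = 0.294), and with the epithelium covariate 0.34 (adjusted p = 0.457). Its neighbour on chromosome 16 is Adamts1, which cuts versican and aggrecan, and no other protein-coding gene lies between them.

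Adamts1 did not follow its neighbour. It measured 7.73, 8.02 and 8.34 on the eNOS-deficient arrays and 8.55, 8.87 and 7.52 on the wild-type arrays. Wild type 5 was the lowest of all 6, and the other wild-type arrays were the highest. Adamts9, which cuts versican and is made by endothelium among other cells, had the same shape, with 7.54, 7.80 and 8.02 against 8.58, 8.74 and 7.52. Over all arrays the differences were -0.28 and -0.50 (limma adjusted p = 0.800 and 0.587). Without wild type 5 they were -0.68 (standard error 0.21, adjusted p = 0.234) and -0.88 (standard error 0.17, adjusted p = 0.137). Leaving out some of the other arrays moved them the other way. Without wild type 3 they were -0.0022 and -0.27, without wild type 2 -0.17 and -0.35, and without eNOS-deficient 11 -0.13 and -0.37. They were more negative without eNOS-deficient 19, at -0.43 and -0.62, and hardly moved without eNOS-deficient 15, at -0.28 and -0.50.

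The mean of the endothelial markers ranked the arrays alike. It was 8.42, 8.69 and 8.74 on eNOS-deficient 11, 15 and 19 and 9.03, 9.06 and 8.30 on wild type 2, 3 and 5. Adamts1 and Adamts9 put all 6 arrays in exactly this order, an observation made after the values were seen. They were the only members to do so, and 107 of 18007 genes (0.594%) shared it. The single markers did not all share the order: 6 of 8 had a negative difference, Erg and Emcn a positive one (0.40 and 0.28), and at an unadjusted p under 0.05 in limma 1 was higher and 0 lower. The array order of each other marker list was compared as well. Mmp23 shared that of the smooth muscle list, as did 0.155% of all genes. For each remaining list 0 members shared the order. Of all genes 0.683% shared that of the fibroblast list, 0.600% that of the macrophage list, and 0.050% that of cartilage, the lowest share. Shares this small cannot tell the lists apart with 34 members. How much of the difference of Adamts1 and Adamts9 goes with endothelial content was not tested.

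The fibrillin-associated Adamts10 and Adamts6, which act on the microfibrils of elastic tissue, were also low on wild type 5. Adamts10 stood at 7.27, 7.57 and 7.39 on the eNOS-deficient arrays and 8.01, 7.64 and 6.69 on the wild-type arrays, and Adamts6 at 6.98, 7.33 and 7.33 against 7.74, 7.70 and 7.03. Their differences were -0.038 and -0.28 over all arrays and -0.42 and -0.51 without wild type 5. Without wild type 2 they were 0.24 and -0.16, without wild type 3 0.058 and -0.17, and without eNOS-deficient 11 0.030 and -0.16. The Adamts10 difference was -0.12 without eNOS-deficient 15. Neither passed with or without wild type 5 (limma adjusted p = 0.978 and 0.662 with it, 0.315 and 0.218 without it).

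Adamts4, an aggrecanase that inflammatory signals induce, measured 5.38, 5.55 and 5.50 on the eNOS-deficient arrays and 5.08, 4.85 and 5.56 on the wild-type arrays. Wild type 5 was the highest of the 6, and the difference was 0.32 with it and 0.52 without it (limma adjusted p = 0.559 and 0.176). For Adamts16 wild type 5 was the highest wild-type array (5.69 against 5.21 and 5.28) and lay just above eNOS-deficient 19, with 5.74, 5.95 and 5.65 on eNOS-deficient 11, 15 and 19. The Adamts16 difference was 0.39 with wild type 5 and 0.53 without it (limma adjusted p = 0.430 and 0.174). Of the other proteoglycan-cutting members, Adamts15, Adamts8 and Adamts20 differed by -0.20, -0.023 and 0.085.

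Adamts7, which cuts cartilage oligomeric matrix protein in the vessel wall, measured 5.53, 5.86 and 5.71 on the eNOS-deficient arrays and 5.68, 5.62 and 5.81 on the wild-type arrays. Its difference of -0.0040 had a 95% interval of -0.32 to 0.31, so a change within that range is not excluded by these arrays. Adamts12, which also cuts that protein, stood at 7.57, 7.52 and 7.01 against 7.18, 6.98 and 6.79. The groups overlapped, since wild type 2 lay above eNOS-deficient 19. The Adamts12 difference was 0.38 (limma adjusted p = 0.487), and 0.28 without wild type 5. Adamts13, the protease of von Willebrand factor, is made mainly in liver. It measured 5.08, 5.04 and 4.80 against 5.01, 5.07 and 4.92, a difference of -0.028 (95% interval -0.33 to 0.27). The procollagen N-proteinases Adamts3 and Adamts14 differed by 0.049 (-0.026 without wild type 5) and 0.17, where a dimmer probe set of Adamts14 gave -0.26. Adamts17 and Adamts19, the latter with values spread from 4.61 to 5.40, differed by -0.19 and -0.25.

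**Figure D3:**
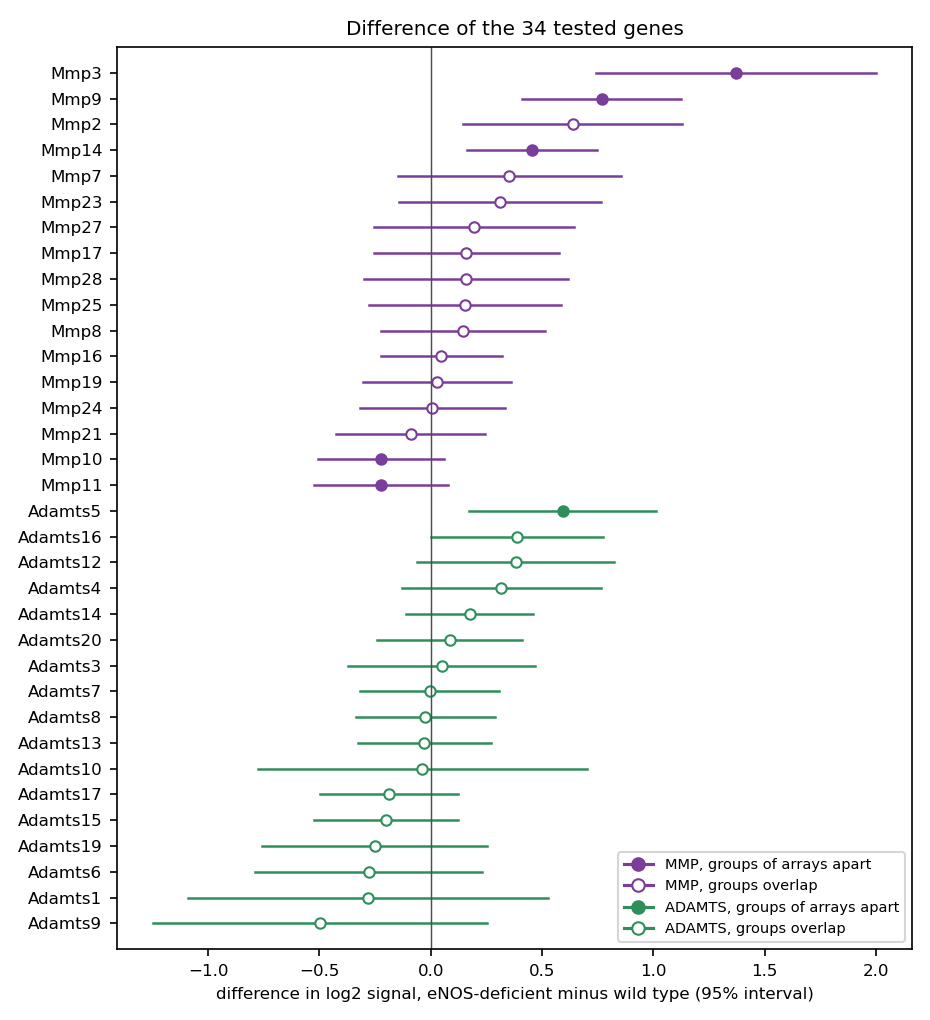
Difference in log2 signal, eNOS-deficient minus wild type, with its 95% limma interval for 34 tested genes; filled points mark genes whose groups of 3 arrays do not overlap. Mmp3, Mmp9, Mmp2, Mmp14, Adamts5 and Adamts16 have intervals above 0, before adjustment over all genes.

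Leaving out wild type 5 changed the picture on the lower side. With all arrays 0 members were lower at an unadjusted p under 0.05 in limma, and without it 6 were: Adamts9, Adamts6, Adamts1, Adamts10, Adamts15 and Mmp10. That is 17.6% of the 34 members, beside 5.93% of all genes. On the higher side 8 members were called, Mmp3, Mmp7, Mmp2, Mmp9, Mmp14, Adamts4, Adamts5 and Adamts16, which is 23.5% beside 8.93% of all genes. Still none passed an adjusted p of 0.05, with a lowest value of 0.124 for Mmp3. Wild type 5 held the lowest signal for 11 of 34 members (32.4%), close to its 32.7% among all genes.

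**Figure D4:**
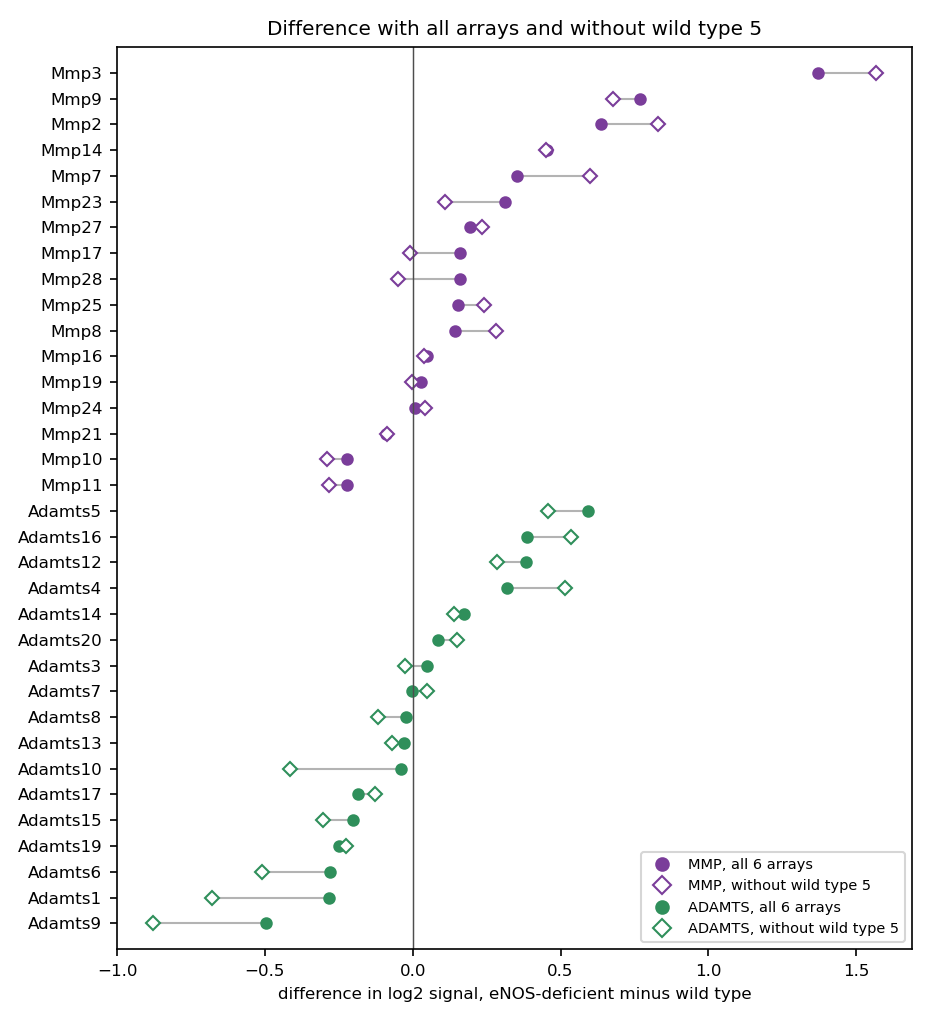
Difference in log2 signal of 34 tested genes with all 6 arrays (circles) and without wild type 5 (diamonds), MMP genes above and ADAMTS genes below. Adamts9, Adamts1, Adamts6 and Adamts10 move to the left without that array, and Mmp3, Mmp2 and Mmp7 to the right.

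The genes around the proteases were counted from lists of inhibitors, activators, substrates and relatives. Of 7 inhibitor genes 3 were higher at an unadjusted p under 0.05 in limma and 0 lower (7.86% and 3.72% of all genes): Timp1, Timp2 and the membrane inhibitor Reck, which measured 8.07, 8.05 and 8.08 on the eNOS-deficient arrays against 7.42, 7.59 and 7.33 (adjusted p = 0.208). Timp3, the matrix-bound inhibitor of aggrecanases, differed by 0.21 and Timp4 by 0.015, with overlapping groups. The Timp2 difference of 0.71 thus stood beside 0.64 for Mmp2 and 0.45 for Mmp14, the enzymes it binds.

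Of 9 measured activators and convertases 3 were higher and 0 lower at that level, beside the same shares of all genes (7.86% and 3.72%): Plat, tissue plasminogen activator, by 0.58, Pcsk6 by 0.38 and the MMP inducer Bsg by 0.30. Furin, which removes the propeptide of membrane-type MMPs and ADAMTS proteases, overlapped between groups (0.27). Of 20 substrates 7 were higher and 0 lower (7.86% and 3.72% of all genes). Among them were the ADAMTS substrate Acan by 1.38, Comp by 1.17, Eln by 1.05, Fn1 by 0.94, Bgn by 0.74 and Thbs2 by 0.44. Vcan differed by 0.46 and the von Willebrand factor gene Vwf by 0.035, with overlapping groups. The collagen genes of the list differed by 0.0045 (Col4a1) to 0.35 (Col1a2), also with overlapping groups. Dcn, the last of the 7 that were higher, is also on the fibroblast marker list. The fibroblast and macrophage marker means, higher on the eNOS-deficient arrays, move with these lists too, and their part was not tested. Of 13 ADAM and ADAMTS-like relatives 0 were called in either direction. No gene of these lists passed an adjusted p of 0.05, and the lowest was 0.100 for Timp1 and Acan.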

How the data were processed

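RNA from aorta was labelled from 300 ng of total RNA and hybridised to 1 Affymetrix array per sample, per the labels' protocols. The deposited log2 values came from RMA in Affymetrix Expression Console 1.3.1, per the submitters' processing notes, and were used as deposited. RMA corrects background and shares a distribution across arrays, which can compress differences of dim probe sets. The labels used here name no genome build and no array batch; gene order and promoters are RefSeq's, on GRCm38.p6.

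Of 41345 probe sets, 23521 listed 1 gene symbol in the platform annotation, 1814 several and 16010 none. Members were read from a fit over 18007 genes (brightest probe set, mean at or above the 25th percentile) in R 4.3.3 using limma 3.58.1 (lmFit, then eBayes, no covariates, two-sided, Benjamini-Hochberg over all genes). Signals of different genes depend on their probes, so their order served only to set the dim level and to choose the 3 brightest genes. Only the limma fit without covariates was tested on simulated data, with planted differences larger than those of most members. Every array's values were given for members past an adjusted p of 0.05, for those with an unadjusted p under 0.05 and groups that do not overlap, for Mmp2, Mmp3, Mmp9, Mmp12, Mmp14, Adamts1, Adamts4, Adamts5, Adamts7 and Adamts13, and for the 3 brightest (Mmp2, Adamts1, Adamts9). Other genes named were chosen after their values were seen. The members and lists were chosen with earlier results of these data known. Of other marker lists, means were 6.73 to 7.11 on the eNOS-deficient and 6.32 to 6.60 on the wild-type arrays for mast cells, 11.07 to 11.20 and 10.91 to 11.33 for adipocytes, 5.44 to 5.59 and 5.40 to 5.50 for cartilage, 9.86 to 11.53 and 8.90 to 10.88 for skeletal muscle, 5.94 to 8.79 and 7.74 to 8.29 for lymphocytes, and 6.87 to 8.37 and 7.39 to 7.69 for nerve. Plots used matplotlib 3.10.9 in Python 3.11.15.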

Additional observations from a re-analysis of the deposited data

How the results depend on the processing

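No paired analysis was possible because the groups share no replicate number. Settings were other filters, a variance trend, the mean of probe sets, other scalings, array weights, 3 marker covariates and arrays left out. No member passed an adjusted p of 0.05 in limma under any of them, and Mmp9, Mmp14, Mmp2, Adamts5 and Adamts16 kept a positive difference in all that tested them. The count of all genes passing, 5, was 3 without a filter on dim genes, 2 with the mean of probe sets, repeated quantile normalization, the epithelium covariate or without eNOS-deficient 11 and wild type 5 together, 119 with array weights, 0 with the macrophage or Y-linked covariate, and 0 to 6 without single arrays. Members lower at an unadjusted p under 0.05 numbered 5 with array weights (7.22% of all genes), with the epithelium covariate (6.09%) or without both arrays (6.203%), and 0 to 6 without single arrays. Members higher numbered 2 with the macrophage covariate (8.002% of all genes), Adamts12 and Mmp28, neither among the 6 called without it, and 0 with the Y-linked one (1.53%). The count was 4 without eNOS-deficient 11 or 15, wild type 2 or wild type 3 (4.96% to 6.84% of all genes). Each time these were Mmp3, Mmp9, Mmp14 and Adamts5, so Mmp2 and Adamts16 dropped out. Leaving out eNOS-deficient 19 gave 6 (6.40%), with Adamts12 in place of Adamts16, and leaving out wild type 5 gave 8 (8.93%). The macrophage covariate moved the members' median to 0.21 and turned the sign of 17 of 34 members, among them Mmp3 (-0.14), Adamts4 (-0.40), Adamts1 (0.64), Adamts9 (0.49), Adamts13 (0.38), Adamts10 (1.40), Mmp7 (-0.64) and Mmp8 (-0.49). The cause was not tested, and its standard errors were wide (0.33 for Mmp3). Differences near 0 changed sign between settings. Adamts7 was 0.061 with median centring, 0.054 with quantile normalization, 0.11 with array weights and 0.085 with the epithelium covariate. It was 0.24 with the Y-linked covariate, -0.20 with the macrophage one, 0.14 without both arrays and -0.085 to 0.083 without single arrays. Adamts13 was 0.037 with median centring, 0.071 with quantile normalization, 0.084 with the Y-linked covariate and -0.084 to 0.060 without single arrays. Over all genes, unadjusted calls split 1415 higher to 669 lower, and 2028 to 388 with median centring. Dim members, such as Mmp8 and Mmp12, limit what can be seen of collagenases and elastase.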
